A study of Mus musculus with 10 samples.

Results

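The comparison of LCDM with 2iL sets 2 serum-free media for mouse embryonic stem cells against each other, and rests on 4 of the 10 RNA-seq libraries of a series on genome stability in such cells. Per the labels the cells were an embryonic stem cell line of strain C57BL6X129S6F1. Both media, and that of a further group called 2iL-F, were N2B27 supplemented with mLIF at 1000 IU and with Chir99021, an inhibitor of the kinase GSK3, at 3 µM. LCDM added the compounds written Dim and Mih, each at 2 µM. The 2iL and 2iL-F media added instead the MEK inhibitor PD0325901 at 1 µM. LCDM and 2iL cells are labelled as grown with feeder cells and 2iL-F cells as grown without. Each group had 2 libraries, numbered 3 and 5. The other 4 libraries of the series came from media called SL and A2iL, both with mLIF at 1000 IU. SL held serum (FBS) at 15% and neither Chir99021 nor PD0325901. A2iL was N2B27 with Chir99021 at 3 µM and the Src inhibitor CGP77675 at 1.5 µM, without PD0325901. These libraries entered the fit that gives the spread and the choice of lines tested, and their values are given for a few genes.

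LIF acts through the receptor subunit gp130 and the transcription factor STAT3 and sustains self-renewal of mouse embryonic stem cells. Inhibition of GSK3 stabilises beta-catenin, and inhibition of MEK stops the FGF to ERK cascade, which otherwise drives these cells towards differentiation. Medium with both inhibitors and LIF holds the cells in the naive state, with low de novo DNA methyltransferases and a hypomethylated genome. In the published LCDM medium the letters stand for LIF, CHIR99021, dimethindene maleate, an antihistamine, and minocycline hydrochloride, a tetracycline antibiotic that is also described as an inhibitor of PARP1. That medium was described for cells with extended developmental potency. The labels themselves write only Dim and Mih. LCDM therefore differed from 2iL in a removed MEK inhibitor and in 2 added compounds at once, and these parts cannot be told apart here.

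Values are TPM, transcript abundances scaled to a fixed total within a library, and each pair of values below gives replicate 3 and then replicate 5. Differences are LCDM minus the other group on the log2(TPM + 1) scale, with the standard error from limma, a scale that shrinks the change of genes at low levels. A gene is said to have risen or fallen in LCDM at a Benjamini-Hochberg adjusted p below 0.05 over all 14578 lines tested, those with at least 1 TPM in 2 or more of the 10 libraries. Nothing states that the 2 libraries of a group were separate cultures, so the p-values cover only how far these libraries differ from one another, and that spread may be technical. Against 2iL, 9075 lines (62.3%) passed, 5000 higher in LCDM (34.3%) and 4075 lower (28.0%). A difference of at least 1 was found for 969 lines higher in LCDM (6.65%) and 853 lower (5.85%). With a pseudocount of 0.1 these counts were 1801 and 1125, so their balance depends on the pseudocount. Against 2iL-F, 8674 lines (59.5%) passed, 4706 higher in LCDM (32.3%) and 3968 lower (27.2%). With 62.3% of all lines past the threshold, the counts of gene groups below are to be read against these shares. They are also to be read against the median difference of all lines, 0.06 against 2iL and 0.05 against 2iL-F. The balance of directions depends on the scaling too. Of the lines that passed, 55.1% against 2iL and 54.3% against 2iL-F were higher in LCDM. With median-of-ratios scaling of the libraries these were 50.4% and 46.2%, and the medians of all lines 0.02 and -0.01. Both comparisons use the same LCDM libraries, so their values are set side by side and are not independent of each other.

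Replicate libraries had Pearson correlations across genes of 0.9925 to 0.9939. The depth of the libraries is unknown, since TPM keep no read number. Gene symbols and values are offset against each other in the lower part of the table, and genes are named only from the first 9865 of its 20494 lines, of which 7962 were tested. The 4 stem cell markers that could be read (Nanog, Sall4, Tdgf1 and Esrrb) summed to 1445 and 1384 TPM in LCDM, against 1305 and 1494 TPM in 2iL and 1339 and 1338 TPM in 2iL-F. The groups overlapped in this sum. The defining fibroblast markers Col1a1, Col1a2, Col3a1, Lox, Dcn and Postn did not follow the feeder labels. They summed to 195.4 and 186.5 TPM in LCDM, against 0.234 and 0.270 TPM in the libraries labelled 2iL and 2011 and 1922 TPM in those labelled 2iL-F. LCDM thus held a clear amount of fibroblast RNA, the libraries labelled 2iL almost none although labelled with feeders, and those labelled 2iL-F the most. Whether the feeder labels or the column names of 2iL and 2iL-F were exchanged cannot be told from these files, so both names stand for the libraries that carry them. For this reason 2iL-F, which has the same medium as 2iL, is given beside 2iL throughout. Words such as highest, lowest or the other groups are about LCDM, 2iL and 2iL-F alone, unless SL or A2iL is named.

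**Figure D1:**
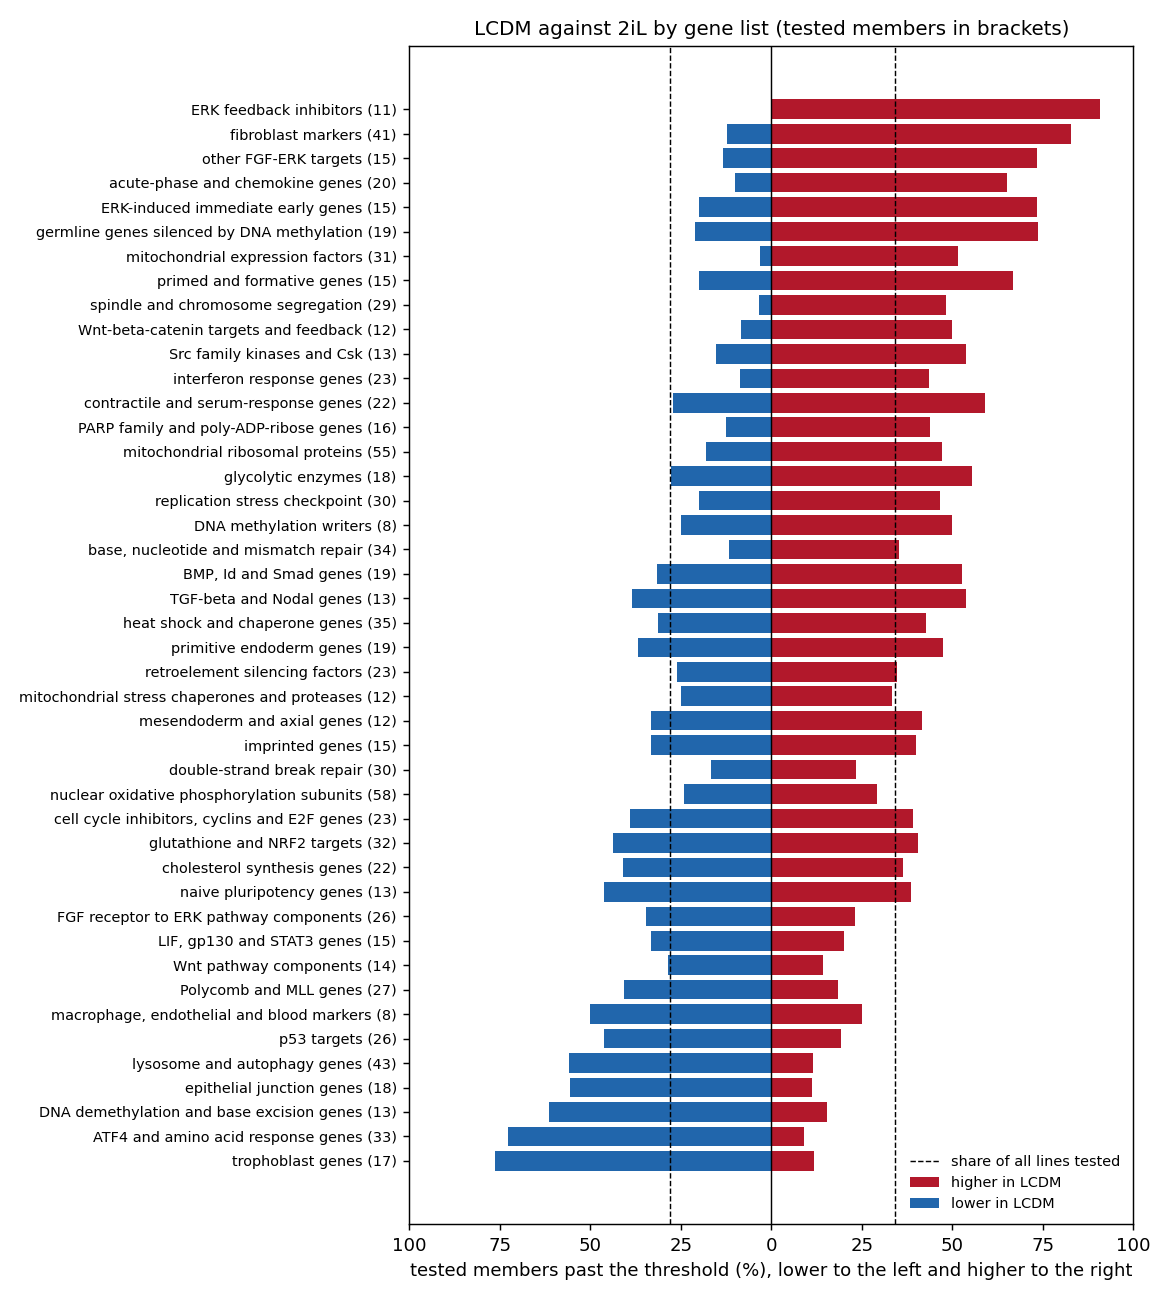
Share of the tested members of each gene list that were higher (right, red) or lower (left, blue) in LCDM than in 2iL at an adjusted p below 0.05, with the number of tested members in brackets. Dashed lines mark the shares of all lines tested, 34.3% higher and 28.0% lower. ERK feedback inhibitors stand at the top with 10 of 11 members higher, and trophoblast genes at the bottom with 13 of 17 lower.

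Feedback inhibitors of the ERK pathway, which are transcribed when ERK is active and then dampen it, were higher in LCDM almost without exception. Of 11 tested members, 10 rose and 0 fell, with a median difference of 1.21 and a largest adjusted p among the risen of 0.011. Against 2iL-F the same list had 9 members higher, 1 lower and a median of 1.31. Spry4 (mm10, chr18:38586247-38601415), which blocks signalling from receptor tyrosine kinases to Ras, had 17.8 and 16.9 TPM in LCDM, against 0.229 and 0.287 TPM in 2iL and 0.429 and 0.343 TPM in 2iL-F. Its mean in LCDM was 67.3 times that in 2iL, with a difference of 3.87 ± 0.08 (adjusted p = 3.3e-09). Neither 2iL nor 2iL-F came near the LCDM level. Spry4 had 31.4 and 32.5 TPM in A2iL and 25.6 and 28.4 TPM in SL, above LCDM. Those media lack the MEK inhibitor but differ from LCDM in other components too, and the part of each component was not tested. Dusp6 (chr10:99263231-99267489), the phosphatase that removes the activating phosphates of ERK in the cytoplasm, had 35.2 and 35.1 TPM in LCDM, against 2.49 and 2.63 TPM in 2iL and 6.59 and 6.22 TPM in 2iL-F (3.34 ± 0.06 against 2iL, adjusted p = 1.8e-09). It too was higher still in A2iL, at 59.3 and 54.4 TPM, and in SL, at 62.3 and 62.8 TPM.

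Spred1, an inhibitor of Raf activation by Ras, had 26.6 and 25.4 TPM in LCDM, against 6.93 and 8.31 TPM in 2iL and 9.14 and 9.44 TPM in 2iL-F. Dusp5, a nuclear ERK phosphatase, had 16.2 and 15.9 TPM in LCDM, against 5.25 and 4.70 TPM in 2iL and 6.79 and 7.03 TPM in 2iL-F. For both genes the LCDM libraries were above all 4 others. Against 2iL, the other members moved by less. Dusp9 is abundant in stem cells and also inducible by BMP4. It had 143 and 148 TPM in LCDM, against 67.2 and 57.9 TPM in 2iL and 34.0 and 34.9 TPM in 2iL-F (1.21 ± 0.07 and 2.04 ± 0.07). Unlike Spry4 and Dusp6, Dusp9 was lower in A2iL than in both groups with the MEK inhibitor, at 24.9 and 24.6 TPM. In SL it had 104 and 106 TPM. Dusp4 differed from 2iL by 1.10 ± 0.07 and Spry2 by 1.10 ± 0.08, and from 2iL-F by 1.39 ± 0.07 and 1.31 ± 0.08. Dusp1, which is also a stress and serum response gene, was highest in 2iL-F among LCDM, 2iL and 2iL-F, the order of their fibroblast RNA. Dusp1 had 156 and 163 TPM in LCDM, against 61.7 and 54.2 TPM in 2iL and 201 and 189.8 TPM in 2iL-F. In A2iL it was higher still, at 470 and 460 TPM. The part of fibroblast RNA in Dusp1 was not tested. Dusp1 and Dusp2 were named here after their values were seen. Dusp2 did not pass, with 0.146 and 0.353 TPM in LCDM and 0.131 and 0.0411 TPM in 2iL.

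**Figure D2:**
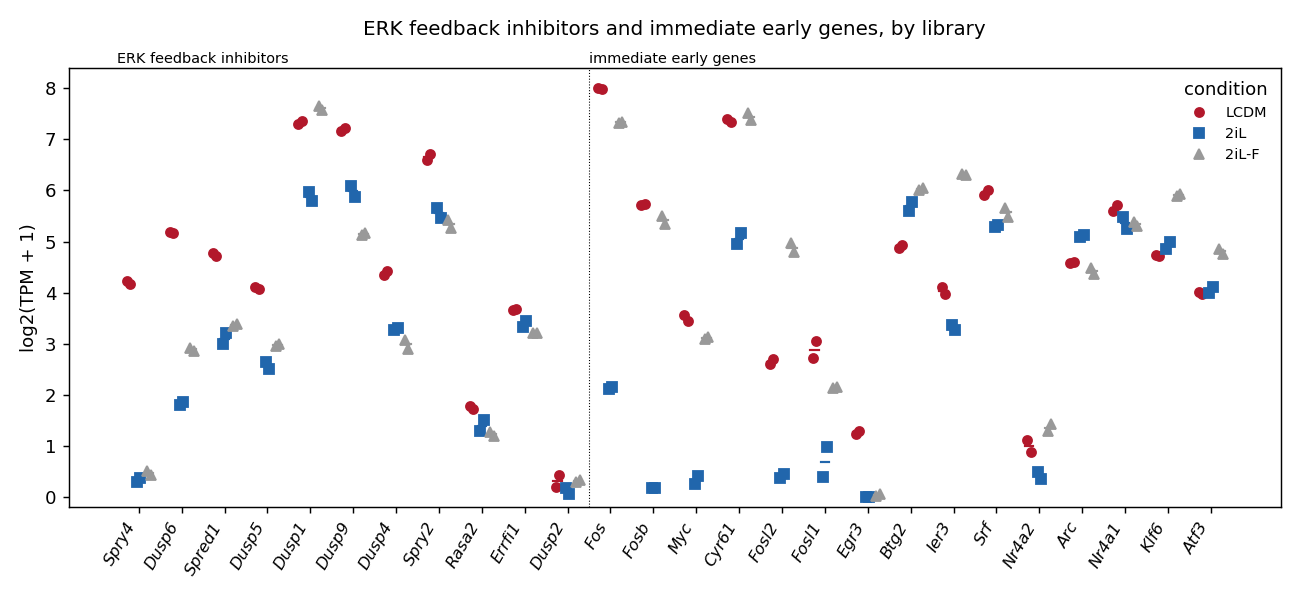
Level of each tested ERK feedback inhibitor (left) and immediate early gene (right) as log2(TPM + 1), with 1 point per library and a bar at the mean of the 2 libraries, for LCDM, 2iL and 2iL-F. Spry4 and Dusp6 lie high in LCDM and low in both 2iL and 2iL-F, whereas Fos, Fosb and Myc lie high in LCDM and 2iL-F and low in 2iL.

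Immediate early genes, the first genes transcribed after ERK activation, and also after serum or stress, rose for 11 of 15 tested members against 2iL and fell for 3 (median 0.72). Against 2iL-F, 7 were higher and 6 lower, with a median of 0.17. Fos (chr12:85473890-85477273), a subunit of the transcription factor AP-1, had 256 and 251 TPM in LCDM, against 3.32 and 3.47 TPM in 2iL, a difference of 5.86 ± 0.04 (adjusted p = 1.3e-11). In 2iL-F, which contains the MEK inhibitor, it had 159 and 162 TPM, and the difference was 0.66 ± 0.04. Its partner Fosb (chr7:19302696-19310051) had 51.5 and 52.0 TPM in LCDM, against 0.126 and 0.132 TPM in 2iL and 44.0 and 39.3 TPM in 2iL-F. Myc (chr15:61985391-61990374), a driver of growth and a target of LIF and Wnt signalling, had 10.8 and 9.88 TPM in LCDM, against 0.194 and 0.333 TPM in 2iL and 7.50 and 7.78 TPM in 2iL-F. All 3 genes were low in the libraries labelled 2iL, and LCDM lay above 2iL-F by far less than above 2iL. Of LCDM, 2iL and 2iL-F, the survival gene Ier3 was highest in 2iL-F. It had 16.2 and 14.7 TPM in LCDM, against 9.30 and 8.67 TPM in 2iL and 78.5 and 77.5 TPM in 2iL-F. Ier3 was higher still in A2iL, at 121 and 116 TPM, and in SL, at 81.3 and 81.2 TPM. Egr3, named after its values were seen, was listed at 0 in both 2iL libraries and had 1.37 and 1.46 TPM in LCDM and 0.0203 and 0.0396 TPM in 2iL-F, so that unlike the other 4 it was near 0 in both groups with the MEK inhibitor. The summed defining fibroblast markers given above lie in the same order as Ier3, and the part of fibroblast RNA in the immediate early differences was not tested.

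Among other FGF and ERK targets, 11 of 15 tested members rose against 2iL and 2 fell, and 7 were higher and 4 lower than in 2iL-F. The ETS factor Etv4 had 139 and 141 TPM in LCDM, against 26.9 and 27.1 TPM in 2iL and 26.6 and 22.9 TPM in 2iL-F (2.33 ± 0.06 and 2.46 ± 0.06). Its relative Etv5 had 228 and 224 TPM in LCDM, against 116 and 122 TPM in 2iL and 202 and 199 TPM in 2iL-F. Etv4 therefore stood apart from both groups with the MEK inhibitor, and Etv5 mainly from the libraries labelled 2iL. Phlda1, an ERK-induced regulator of survival, had 14.5 and 15.4 TPM in LCDM, against 2.62 and 1.87 TPM in 2iL and 9.04 and 7.68 TPM in 2iL-F. Tnc, a matrix protein, and Ccnd2, cyclin D2, were far below LCDM in 2iL and above it in 2iL-F. Tnc had 23.3 and 22.6 TPM in LCDM, against 0 and 0.0106 TPM in 2iL and 95.3 and 92.1 TPM in 2iL-F. Ccnd2 had 8.38 and 7.38 TPM in LCDM, against 0.0932 and 0.0350 TPM in 2iL and 19.5 and 20.1 TPM in 2iL-F.

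The components of the cascade itself, from FGF receptors to the ERK-activated kinases, showed no common direction: 6 of 26 rose, 9 fell and 11 did not pass, with a median of -0.02. Map2k1, which encodes the MEK1 kinase that PD0325901 inhibits, had 99.3 and 98.7 TPM in LCDM, against 96.5 and 103 TPM in 2iL and 103 and 97.7 TPM in 2iL-F, and the groups overlapped. The receptor gene Fgfr1 fell, with 28.6 and 30.7 TPM in LCDM, against 45.9 and 44.6 TPM in 2iL. Fgfr2 rose, with 16.0 and 18.01 TPM in LCDM, against 9.16 and 8.09 TPM in 2iL. Both differences were below 1 in size (-0.59 ± 0.05 and 0.90 ± 0.08). The ETS factors Elk3 and Ets1 rose against 2iL (1.14 ± 0.07 and 0.95 ± 0.08) and were lower in LCDM than in 2iL-F (-0.49 ± 0.07 and -0.84 ± 0.08), and the Ras exchange factor Sos2 fell against 2iL (-0.68 ± 0.12).

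The de novo DNA methylation machinery was higher in LCDM. Dnmt3a (chr12:3806007-3914443) and Dnmt3b (chr2:153649450-153687730) encode the enzymes that place new methyl groups, and Dnmt3l (chr10:78041947-78063622) encodes their catalytically inactive cofactor. Dnmt3a had 18.8 and 17.97 TPM in LCDM, against 3.08 and 3.16 TPM in 2iL and 3.45 and 3.52 TPM in 2iL-F, a mean 5.89 times that in 2iL (2.23 ± 0.06, adjusted p = 1.6e-08). Dnmt3l had 29.3 and 27.5 TPM in LCDM, against 3.20 and 3.67 TPM in 2iL and 4.49 and 4.12 TPM in 2iL-F (2.73 ± 0.07, adjusted p = 1.3e-08). Both genes were low in 2iL and 2iL-F and far higher in LCDM. In A2iL and SL, which differ from LCDM in several components, both were also above 2iL and 2iL-F. Dnmt3a had 10.7 and 11.3 TPM in A2iL and 41.9 and 42.7 TPM in SL. Dnmt3l had 39.7 and 39.4 TPM in A2iL and 104 and 105 TPM in SL. The part of each component was not tested. Dnmt3b had 55.4 and 51.9 TPM in LCDM, against 7.73 and 8.82 TPM in 2iL and 21.0 and 22.4 TPM in 2iL-F, so that its difference was 2.56 ± 0.07 against 2iL and 1.27 ± 0.07 against 2iL-F. The maintenance side moved little and mostly the other way. Dnmt1, the maintenance methyltransferase, had 135 and 134 TPM in LCDM, against 143 and 152 TPM in 2iL (-0.13 ± 0.05, adjusted p = 0.048), and was higher in LCDM than in 2iL-F (0.18 ± 0.05). Its difference from 2iL no longer passed in 7 of the 15 alternatives, among them those without LCDM replicate 3, LCDM replicate 5 or 2iL replicate 5. Uhrf1, which guides Dnmt1 to replicated DNA, had 318 and 318 TPM in LCDM, against 388 and 413 TPM in 2iL and 388 and 382 TPM in 2iL-F. Of the 8 tested writers, 4 rose and 2 fell.

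Genes of DNA demethylation and base excision mostly fell: 8 of 13 were lower in LCDM and 2 higher, with a median of -0.54. Against 2iL-F, 6 were lower and 3 higher. Gadd45b, a stress-induced gene also linked to demethylation, had 27.3 and 28.3 TPM in LCDM, against 148 and 139 TPM in 2iL and 52.8 and 48.5 TPM in 2iL-F (-2.33 ± 0.07). Gadd45g had 16.9 and 20.2 TPM in LCDM, against 52.5 and 44.8 TPM in 2iL and 81.3 and 85.3 TPM in 2iL-F (-1.35 ± 0.09). Both were lowest in LCDM. Mbd4, a glycosylase acting at methylated sites, fell against 2iL (-1.18 ± 0.10) and was close to 2iL-F, where it did not pass (-0.15 ± 0.10). Idh2, which makes the cofactor of the TET enzymes, fell against both (-1.004 ± 0.07 and -0.52 ± 0.07).

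**Figure D3:**
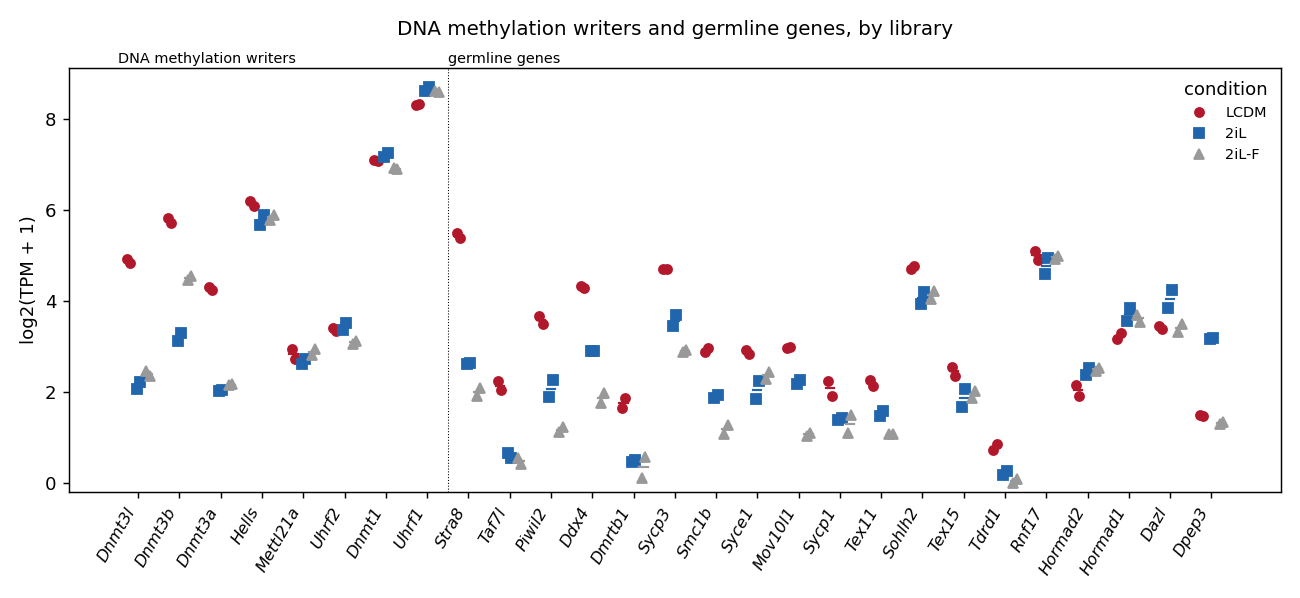
Level of each tested DNA methylation writer (left) and germline gene (right) as log2(TPM + 1), with 1 point per library and a bar at the mean, for LCDM, 2iL and 2iL-F. Dnmt3l, Dnmt3a and Stra8 are high in LCDM and low in both 2iL and 2iL-F, while Uhrf1 and Dnmt1 lie close together in all groups.

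Germline genes that DNA methylation keeps silent in somatic cells were mostly higher in LCDM. Of 19 tested members, 14 rose and 4 fell against 2iL (median 0.68, largest adjusted p among the called 0.045), and 14 were higher and 1 lower than in 2iL-F (median 0.77). A further 4 nameable members stayed below 1 TPM. Stra8 (chr6:34920163-34939344), a gatekeeper of meiotic entry that responds to retinoic acid, had 43.9 and 40.8 TPM in LCDM, against 5.11 and 5.21 TPM in 2iL and 2.78 and 3.25 TPM in 2iL-F (2.82 ± 0.08 and 3.44 ± 0.08, adjusted p = 2.9e-08 and 1.6e-08). Piwil2, which acts in the piRNA pathway of germ cells, had 11.8 and 10.3 TPM in LCDM, against 2.72 and 3.80 TPM in 2iL and 1.17 and 1.35 TPM in 2iL-F. Ddx4, the germ cell RNA helicase Vasa, had 19 and 18.4 TPM in LCDM, against 6.46 and 6.53 TPM in 2iL and 2.40 and 2.96 TPM in 2iL-F. In all 3 the LCDM libraries were above the other 4, and 2iL above 2iL-F. Unlike the methyltransferases, Stra8 was low in A2iL, at 3.09 and 3.09 TPM, and had 14.5 and 13.1 TPM in SL. Taf7l, a germ cell subunit of the general transcription factor TFIID, had 3.72 and 3.11 TPM in LCDM, against 0.586 and 0.477 TPM in 2iL and 0.478 and 0.350 TPM in 2iL-F. Sohlh2, a factor of early germ cells, had 25.2 and 26.2 TPM in LCDM, against 14.4 and 17.4 TPM in 2iL and 15.5 and 17.7 TPM in 2iL-F. The largest falls on the list were those of Dpep3 and Dazl. Dpep3, a membrane dipeptidase of the testis, had 1.83 and 1.77 TPM in LCDM, against 7.95 and 8.10 TPM in 2iL and 1.47 and 1.54 TPM in 2iL-F. Dazl, an RNA-binding protein of germ cells, had 10.01 and 9.51 TPM in LCDM, against 13.3 and 18.03 TPM in 2iL and 8.96 and 10.2 TPM in 2iL-F. Neither passed against 2iL-F.

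In mouse embryonic stem cells many germline promoters are repressed through E-boxes and E2F sites, which a variant Polycomb complex with Mga and E2f6 binds. RefSeq promoters (GRCm38.p6, from 250 bases before to 50 after the start site) were found for 15 of the 19 tested germline genes, and 7 of these (46.7%) held the E-box CACGTG, against 8.09% of the 27025 genes with a promoter. The E2F core TTCCCGC, read on both strands, was in 4 (26.7%), against 5.29% of all genes. The genes were listed as germline genes silenced by DNA methylation, so these shares describe the list and not the change in LCDM. All 15 genes are named here by whether they held the E-box. Of those with it, Ddx4, Sycp1, Sycp3, Taf7l, Tdrd1 and Mov10l1 rose against 2iL and Hormad1 fell. Of those without it, Stra8, Sohlh2, Syce1, Dmrtb1 and Smc1b rose, and Dazl, Hormad2 and Dpep3 fell. The stretches that hold the E-box are shown for 3 genes that rose in LCDM. They, and with them Ddx4 and Sycp3, were chosen after values and motifs were seen, lie before the start site, are written in the direction of the gene and have the E-box in capitals. The stretches are chr13:112652311-112652399 for Ddx4 on the minus strand, chr10:88459463-88459586 for Sycp3 on the plus strand and chrX:134476491-134476599 for Taf7l on the minus strand.
Ddx4: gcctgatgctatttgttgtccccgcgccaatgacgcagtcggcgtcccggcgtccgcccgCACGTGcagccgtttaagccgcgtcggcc
Sycp3: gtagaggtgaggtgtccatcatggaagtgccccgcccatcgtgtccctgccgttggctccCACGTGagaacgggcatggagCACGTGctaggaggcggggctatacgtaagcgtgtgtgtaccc
Taf7l: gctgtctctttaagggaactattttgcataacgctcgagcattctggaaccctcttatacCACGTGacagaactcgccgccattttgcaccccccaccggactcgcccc
Sycp3, a component of the meiotic chromosome axis, carries 2 E-boxes within this stretch and had 24.999 and 25.1 TPM in LCDM, against 9.92 and 11.9 TPM in 2iL and 6.36 and 6.63 TPM in 2iL-F (1.14 ± 0.14). A match to these letters is a description of the sequence and does not show that a factor binds there.

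Pluripotency genes did not move as 1 block. Among core genes, 4 of 7 tested members rose, 2 fell and 1 did not pass. Nanog (chr6:122707489-122714633), the homeodomain factor of the naive network, had 473 and 450.1 TPM in LCDM, against 606 and 729 TPM in 2iL and 652 and 643 TPM in 2iL-F, a fall of moderate size (-0.53 ± 0.08, adjusted p = 4.0e-04). Tdgf1, the Nodal co-receptor Cripto, had 622 and 587 TPM in LCDM, against 354 and 407 TPM in 2iL and 353 and 364 TPM in 2iL-F. Gdf3, a Nodal-related ligand, fell (-0.53 ± 0.05), and Sall4 rose slightly (0.23 ± 0.04). Of 13 naive genes, 5 rose and 6 fell (median -0.18). Tfcp2l1 (chr1:118627945-118685168), a naive factor downstream of LIF and GSK3 inhibition, had 93.7 and 88.4 TPM in LCDM, against 201 and 239 TPM in 2iL and 202 and 203 TPM in 2iL-F (-1.26 ± 0.07, adjusted p = 1.7e-06). The 2 groups with the MEK inhibitor overlapped and both lay above LCDM. Klf4 (chr4:55527143-55532466), a STAT3 target and reprogramming factor, had 573 and 566 TPM in LCDM, against 157 and 153 TPM in 2iL and 536 and 497 TPM in 2iL-F (1.87 ± 0.05 against 2iL and 0.14 ± 0.05 against 2iL-F). Gbx2, another STAT3 target, had 52.3 and 54.5 TPM in LCDM, against 10.99 and 10.7 TPM in 2iL and 28.1 and 23.4 TPM in 2iL-F. Spic, an ETS factor typical of 2i cultures, had 0.405 and 0.253 TPM in LCDM, against 6.25 and 7.08 TPM in 2iL and 10.7 and 10.6 TPM in 2iL-F. Esrrb did not pass in either comparison (-0.08 ± 0.05 and 0.05 ± 0.05), and Klf5 fell slightly against 2iL (-0.22 ± 0.05). Nr0b1, a repressor within the naive network, rose against 2iL (1.21 ± 0.04) and lay near 2iL-F (0.11 ± 0.04), while Tbx3 rose against 2iL (0.59 ± 0.06) and was lower than in 2iL-F (-0.33 ± 0.06).

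**Figure D4:**
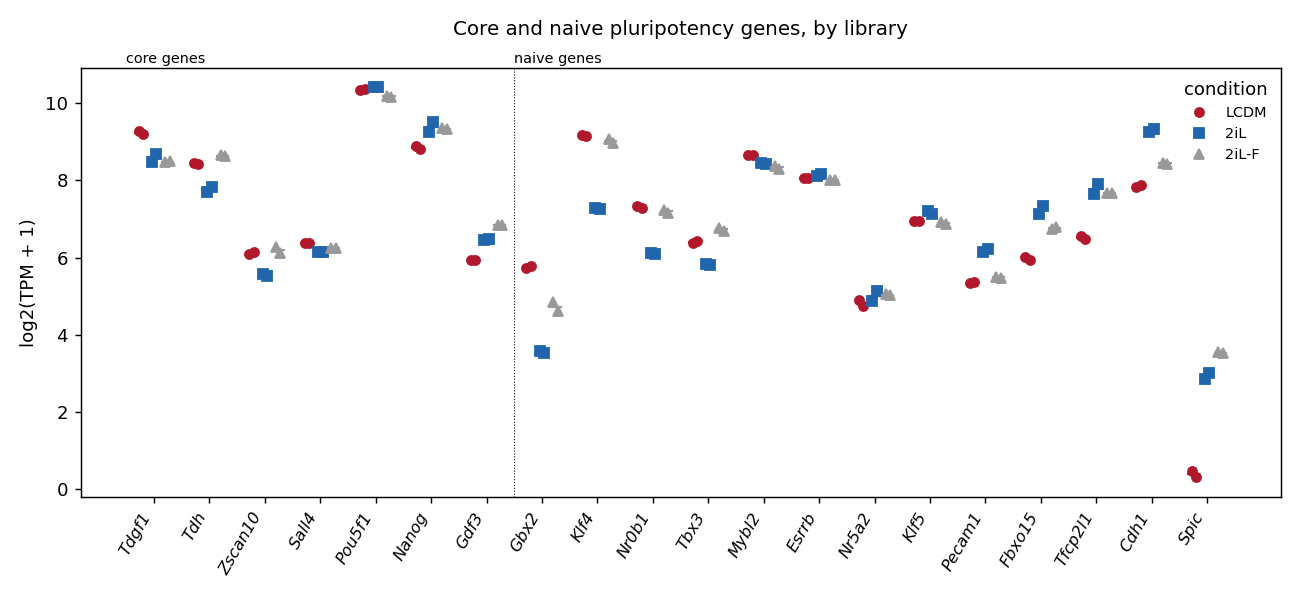
Level of each tested core (left) and naive (right) pluripotency gene as log2(TPM + 1), with 1 point per library and a bar at the mean, for LCDM, 2iL and 2iL-F. Tfcp2l1 and Spic are lowest in LCDM, Gbx2 is highest there, and Klf4 is low in the libraries labelled 2iL alone.

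Genes of the LIF, gp130 and STAT3 pathway were split, 3 higher, 5 lower and 7 not passing among 15. Stat3 had 27.7 and 26.3 TPM in LCDM, against 39.2 and 42.4 TPM in 2iL and 36.4 and 35.2 TPM in 2iL-F. Il6st, which encodes gp130, had 18.8 and 17.9 TPM in LCDM, against 12.6 and 13.4 TPM in 2iL and 31.8 and 32.2 TPM in 2iL-F. Pim1, a kinase gene induced by STAT3, fell against both (-0.82 ± 0.06 and -0.26 ± 0.06).

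Primed and formative genes, which mark the exit from the naive state, rose for 10 of 15 tested members and fell for 3 (median 1.34), but against 2iL-F 6 were higher and 7 lower. Vim, which encodes the filament vimentin of primed cells and of fibroblasts, had 156 and 150.1 TPM in LCDM, against 17.6 and 20.0 TPM in 2iL and 208 and 211 TPM in 2iL-F. Sfrp2, a secreted Wnt antagonist, had 18.5 and 18.4 TPM in LCDM, against 1.51 and 1.95 TPM in 2iL and 16.8 and 15.7 TPM in 2iL-F. Of LCDM, 2iL and 2iL-F, Vim was highest in 2iL-F. Vim was higher still in A2iL, at 286 and 284 TPM, and in SL, at 485 and 513 TPM. Sfrp2 did not pass against 2iL-F, and the part of fibroblast RNA was not tested. Dnmt3b and Etv4, also on this list, are given above. Otx2, the factor that leads formative cells, went the other way, with 1.91 and 1.88 TPM in LCDM, against 6.25 and 7.81 TPM in 2iL and 6.03 and 5.94 TPM in 2iL-F. Fgf5, the usual marker of primed cells, was at 0 and 0.0353 TPM in LCDM and 0 in both 2iL libraries. Cdh2, the N-cadherin gene, had 2.33 and 2.17 TPM in LCDM, against 0.185 and 0.235 TPM in 2iL and 5.50 and 5.65 TPM in 2iL-F.

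Mesendoderm and axial genes had no common direction, with 5 of 12 higher and 4 lower, and 3 higher without LCDM replicate 5. Gsc (chr12:104471209-104473330), the goosecoid factor of the organiser, was among the largest falls of the comparison, with 1.99 and 1.95 TPM in LCDM, against 39.9 and 31.6 TPM in 2iL and 22.1 and 25.6 TPM in 2iL-F (-3.62 ± 0.18 and -3.06 ± 0.18). Chrd, a BMP antagonist of the organiser, fell against 2iL (-1.39 ± 0.10), and Fgf17, a ligand of the Fgf8 subfamily, rose, with 36.7 and 39.4 TPM in LCDM, against 15.3 and 13.5 TPM in 2iL and 16.6 and 14.8 TPM in 2iL-F. The 2iL and 2iL-F values of Fgf17 overlapped.

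The BMP branch held 2 of the larger rises. Of 19 tested BMP, Id and Smad genes, 10 rose and 6 fell (median 0.35). The ligand gene Bmp4 (chr14:46383520-46390669) had 20.8 and 21.3 TPM in LCDM, against 0.975 and 0.550 TPM in 2iL and 3.70 and 2.95 TPM in 2iL-F (3.65 ± 0.14 and 2.35 ± 0.14, adjusted p = 1.6e-07 and 2.6e-06). Id3 (chr4:136143497-136145755), an inhibitor of bHLH factors that BMP and ERK signalling induce, had 66.3 and 61.0 TPM in LCDM, against 0.0489 and 0 TPM in 2iL and 39.2 and 41.6 TPM in 2iL-F. Bmp4 was thus far above both groups with the MEK inhibitor, and Id3 far above the libraries labelled 2iL and by less above 2iL-F (0.64 ± 0.07). Smad7, an inhibitory Smad, rose against 2iL and did not pass against 2iL-F, with 104 and 105 TPM in LCDM, against 45.0 and 42.6 TPM in 2iL and 99.6 and 92.3 TPM in 2iL-F. The receptor gene Acvr1 fell (-0.93 ± 0.11 and -0.74 ± 0.11).

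Beta-catenin targets rose for 6 of 12 tested members and fell for 1. All 3 media contained the GSK3 inhibitor. Axin2, the most used readout of the pathway, did not pass against 2iL, with 13.6 and 14.4 TPM in LCDM, against 13.5 and 12.3 TPM in 2iL, and was lower than in 2iL-F, which had 24.4 and 23.2 TPM. Without 2iL replicate 3 it passed against 2iL as higher in LCDM (0.17). Lef1, a transcription factor that partners beta-catenin, had 2.57 and 2.40 TPM in LCDM, against 0.0599 and 0.0375 TPM in 2iL and 0.753 and 0.656 TPM in 2iL-F. Sfrp1, a secreted Wnt antagonist, fell to 49.1 and 53.5 TPM in LCDM, against 171 and 181 TPM in 2iL and 154 and 147 TPM in 2iL-F. On the ligand side, Porcn (chrX:8193848-8206525), the acyltransferase that Wnts need for secretion, had 26.6 and 28.2 TPM in LCDM, against 0.672 and 0.577 TPM in 2iL and 2.44 and 1.95 TPM in 2iL-F, a mean 43.9 times that in 2iL (4.13 ± 0.10, adjusted p = 1.2e-08). Of the 14 tested Wnt pathway components, 4 fell and 2 rose, the rises being Porcn and Wls, which carries Wnts to the cell surface (0.72 ± 0.10 against 2iL and -2.04 ± 0.10 against 2iL-F). Without LCDM replicate 3 the falls number 2.

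Trophoblast genes were lower in LCDM than in 2iL, 13 of 17 tested members falling and 2 rising (median -0.81, largest adjusted p among the called 0.019). Against 2iL-F, 10 were lower and 3 higher, with a median of -0.45. Rhox6 (chrX:37826910-37829857), an X-linked homeobox gene of the placenta and germ line, had 2.21 and 2.27 TPM in LCDM, against 44.9 and 44.7 TPM in 2iL and 6.90 and 6.74 TPM in 2iL-F (-3.82 ± 0.07, adjusted p = 2.0e-09). Gata2, a GATA factor of trophoblast and blood, had 1.24 and 1.13 TPM in LCDM, against 27.1 and 29.3 TPM in 2iL and 2.33 and 1.88 TPM in 2iL-F. For both, the libraries labelled 2iL stood far above the others. Elf3, an epithelial ETS factor, had 21.7 and 19.15 TPM in LCDM, against 91.5 and 100.9 TPM in 2iL and 97.5 and 92.4 TPM in 2iL-F, and the values of both groups with the MEK inhibitor overlapped. Regulators of the lineage differed in level and direction. Tfap2c, Tead4 and Eomes are given here after their values were seen. Tfap2c had 69.7 and 75.0 TPM in LCDM, against 123 and 113 TPM in 2iL and 79.9 and 75.4 TPM in 2iL-F. Tead4 had 29.8 and 31.4 TPM in LCDM, against 60.8 and 61.0 TPM in 2iL and 35.1 and 33.1 TPM in 2iL-F. Eomes rose, with 8.21 and 8.77 TPM in LCDM, against 4.20 and 4.46 TPM in 2iL and 3.57 and 3.93 TPM in 2iL-F. Cdx2 and Gata3 were near 0 in these groups: Cdx2 had 0.129 and 0.156 TPM in LCDM and was listed at 0 in both 2iL libraries, and Gata3 had 0.220 and 0.222 TPM in LCDM, against 0.573 and 0.580 TPM in 2iL, a difference that no longer passed when any 1 of the 4 libraries was left out. The 4 trophoblast markers Cdx2, Elf5, Gata3 and Krt7 summed to 2.08 and 2.23 TPM in LCDM, against 3.87 and 5.34 TPM in 2iL and 2.66 and 2.57 TPM in 2iL-F.

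Primitive endoderm genes were split, 9 higher and 7 lower among 19. Against 2iL the lineage factors Gata6 and Gata4 moved in opposite directions. Gata6 had 4.72 and 4.64 TPM in LCDM, against 0.961 and 1.03 TPM in 2iL and 2.85 and 2.49 TPM in 2iL-F. Gata4 had 3.74 and 3.55 TPM in LCDM, against 9.90 and 8.44 TPM in 2iL and 2.40 and 2.51 TPM in 2iL-F. The basement membrane collagens Col4a1 and Col4a2, which fibroblasts also make, rose against 2iL (2.99 ± 0.07 and 2.27 ± 0.06) and not against 2iL-F (-0.16 ± 0.07 and -0.58 ± 0.06). Lama1, a laminin chain, fell against both (-1.57 ± 0.07 and -0.86 ± 0.07), and Amn, an endocytic receptor subunit of visceral endoderm, rose against both (1.69 ± 0.11 and 1.65 ± 0.11).

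A further rule asked for genes that passed with a difference of at least 1 against both 2iL and 2iL-F. It also asked for no overlap of the libraries and a mean of 5 TPM or more in the group that was higher. Of the 7962 nameable lines tested, 88 were higher in LCDM and 110 lower by this rule. Predicted, small RNA, ribosomal protein and histone genes were skipped. The rule did not use SL or A2iL, so a gene that met it need not be particular to LCDM. Besides Spry4, Porcn, Stra8, Dnmt3l, Dnmt3a, Bmp4, Etv4 and Dusp6, the 15 leading rises held genes of other functions. Eras (chrX:7924276-7928607), a constitutively active Ras of embryonic stem cells, had 47.3 and 47.9 TPM in LCDM, against 5.70 and 4.36 TPM in 2iL and 4.15 and 4.78 TPM in 2iL-F (3.02 ± 0.11 and 3.16 ± 0.11). Pdk1 (chr2:71873224-71903858), the kinase that inhibits pyruvate dehydrogenase and so limits entry of pyruvate into mitochondria, had 58.0 and 55.0 TPM in LCDM, against 7.58 and 8.02 TPM in 2iL and 8.87 and 9.10 TPM in 2iL-F. In both genes 2iL and 2iL-F lay close together. Pdk1 also had 51.0 and 52.2 TPM in SL and 66.7 and 65.1 TPM in A2iL. Eras had 40.0 and 39.6 TPM in SL and 14.1 and 12.4 TPM in A2iL. Phlda2, an imprinted gene that restrains placental growth, had 116 and 116 TPM in LCDM, against 26.2 and 22.6 TPM in 2iL and 15.1 and 16.0 TPM in 2iL-F. Myrf, a membrane-bound transcription factor, had 9.83 and 9.52 TPM in LCDM, against 0.317 and 0.289 TPM in 2iL and 1.21 and 0.898 TPM in 2iL-F. The other 3 were Adam23, Kif26a and Pdzd4, with differences from 2iL of 2.20 ± 0.07, 2.04 ± 0.10 and 2.00 ± 0.05.

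Among the leading falls against both groups, Aqp3 (chr4:41092722-41098183), a channel for water and glycerol, had 21.8 and 20.7 TPM in LCDM, against 247 and 254 TPM in 2iL and 132 and 141 TPM in 2iL-F (-3.50 ± 0.05 and -2.63 ± 0.05, adjusted p = 6.0e-10 and 7.8e-09). Calcoco2 (chr11:96099326-96111964), an autophagy receptor, had 15.4 and 12.4 TPM in LCDM, against 121 and 125 TPM in 2iL and 164 and 167 TPM in 2iL-F. Ube2l6, the conjugating enzyme for the ubiquitin-like protein ISG15, had 1.02 and 1.77 TPM in LCDM, against 22.2 and 26.0 TPM in 2iL and 26.3 and 24.8 TPM in 2iL-F. All 3 genes were high in both groups with the MEK inhibitor. Aqp3 had 3.68 and 3.73 TPM in SL and 12.3 and 12.2 TPM in A2iL, below LCDM. Calcoco2 was below LCDM there too, with 4.54 and 4.15 TPM in SL and 2.52 and 2.65 TPM in A2iL. Ube2l6 was above LCDM there, with 5.81 and 5.06 TPM in SL and 6.89 and 6.27 TPM in A2iL. Mitf, a regulator of lysosome and pigment genes, had 2.34 and 1.77 TPM in LCDM, against 14.4 and 16.8 TPM in 2iL and 12.2 and 11.9 TPM in 2iL-F. Plagl1, an imprinted zinc finger gene, had 3.72 and 3.08 TPM in LCDM, against 17.6 and 22.7 TPM in 2iL and 28.5 and 28.4 TPM in 2iL-F. Gsc, Elf3, Spic, Smtnl1, Stard8, Pla1a, Vwf, Nckap1l, Nnmt and Calb2 completed the 15, with differences from 2iL between -3.62 ± 0.18 for Gsc and -2.08 ± 0.07 for Calb2. Against 2iL alone, the largest falls added Mal (-3.58 ± 0.11), Mst1 (-3.43 ± 0.18), Chit1 (-3.29 ± 0.13), Rasgef1a (-3.27 ± 0.11), Gpat3 (-3.27 ± 0.11), Eps8l2 (-3.22 ± 0.07), Slc11a1 (-3.18 ± 0.15), Tspo2 (-3.10 ± 0.10) and Copz2 (-2.93 ± 0.06). Each of these 9 was also lower in 2iL-F than in 2iL, though not as low as in LCDM: Eps8l2 had 5.66 and 5.70 TPM in LCDM, against 60.2 and 62.0 TPM in 2iL and 12.3 and 12.1 TPM in 2iL-F.

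The amino acid response was lower in LCDM than in 2iL. ATF4 is the transcription factor that cells translate when amino acids run short or when mitochondria or the endoplasmic reticulum are stressed, and it induces genes of amino acid supply and tRNA charging. Of 33 tested genes, 24 fell and 3 rose (median -0.61, largest adjusted p among the called 0.02). Against 2iL-F the list was nearly balanced, with 14 lower, 10 higher and a median of -0.02. Ddit3, the stress factor CHOP, had 20.1 and 19.5 TPM in LCDM, against 105 and 88.4 TPM in 2iL and 41.1 and 43.3 TPM in 2iL-F (-2.23 ± 0.09 and -1.05 ± 0.09). Nupr1, a stress-induced nuclear protein, had 36.0 and 35.8 TPM in LCDM, against 128 and 126 TPM in 2iL and 46.5 and 47.3 TPM in 2iL-F. Gpt2, a mitochondrial alanine transaminase, had 51.3 and 51.9 TPM in LCDM, against 181 and 188 TPM in 2iL and 59.9 and 59.5 TPM in 2iL-F. For Nupr1 and Gpt2 the LCDM and 2iL-F values lay near each other and the libraries labelled 2iL far above. Asns, asparagine synthetase, had 378 and 368 TPM in LCDM, against 731 and 819 TPM in 2iL and 546 and 551 TPM in 2iL-F. Chac1, which degrades glutathione, did not pass (-0.06 ± 0.06).

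ATF4 binds with C/EBP partners at a composite site. RefSeq promoters were found for 27 of the 33 genes. Of these, 9 (33.3%) held the letters TGATGCAA on either strand, against 1.03% of all 27025 genes. The genes were listed as ATF4 and amino acid response genes, so this share describes the list and not the change in LCDM. All 9 genes with these letters are named here. Against 2iL, Pycr1, Vldlr, Nupr1, Fgf21, Herpud1 and Aars fell, Slc7a11 rose, and Chac1 and Slc1a4 did not pass. Stretches before the start site of 3 genes that fell are shown with these letters, or their reverse complement, in capitals, these stretches and Pycr1 again being chosen after values and motifs were seen. They are chr7:45615562-45615689 for Fgf21, chr7:126625513-126625640 for Nupr1 and chr11:120643784-120643911 for Pycr1 (GRCm38.p6), all on the minus strand and written in the direction of the gene.
Fgf21: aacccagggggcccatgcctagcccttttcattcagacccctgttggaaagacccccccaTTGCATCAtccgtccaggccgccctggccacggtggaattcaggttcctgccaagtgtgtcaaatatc
Nupr1: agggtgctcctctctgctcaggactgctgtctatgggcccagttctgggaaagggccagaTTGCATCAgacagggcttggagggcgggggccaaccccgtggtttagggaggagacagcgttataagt
Pycr1: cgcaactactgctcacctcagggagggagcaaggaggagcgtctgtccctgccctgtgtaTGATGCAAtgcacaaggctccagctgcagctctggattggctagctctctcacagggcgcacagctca
Fgf21, a stress hormone, had 0.409 and 0.186 TPM in LCDM, against 4.15 and 4.85 TPM in 2iL and 0.282 and 0.0918 TPM in 2iL-F. Pycr1, an enzyme of proline synthesis, had 33.4 and 35.3 TPM in LCDM, against 84.8 and 79.8 TPM in 2iL and 40.8 and 38.4 TPM in 2iL-F. Promoters of other lists were searched as well. The ETS core CCGGAAG was in 0 of the 8 ERK feedback inhibitors with a promoter, against 9.93% of all genes.

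**Figure D5:**
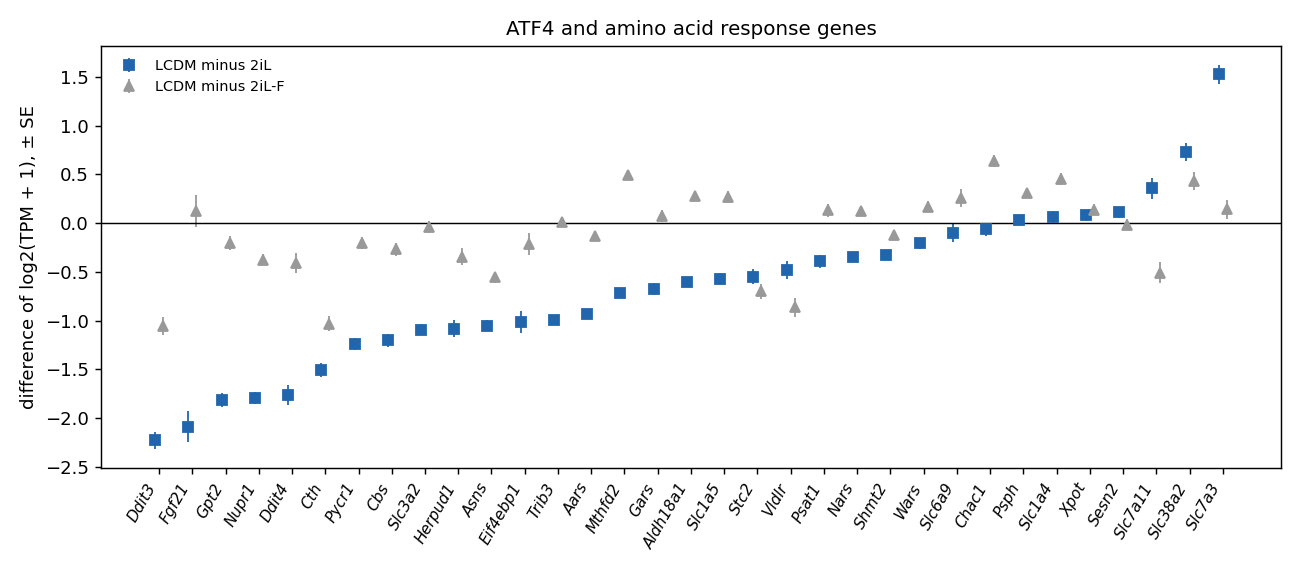
Difference of log2(TPM + 1) ± SE for each of the 33 tested ATF4 and amino acid response genes, as LCDM minus 2iL (squares) and LCDM minus 2iL-F (triangles), ordered by the difference from 2iL. The squares run from -2.23 ± 0.09 for Ddit3 to 1.52 ± 0.09 for Slc7a3, an arginine transporter named after its value was seen.

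Tetracyclines bind the bacterial ribosome and can also slow translation in mitochondria, so nuclear genes of the mitochondrial translation system were read as a group. Mitochondrial ribosomal proteins rose for 26 of 55 tested members and fell for 10, each by less than 1 in size (median 0.17), and 35 were higher and 4 lower than in 2iL-F (median 0.21). Factors of mitochondrial gene expression rose for 16 of 31 and fell for 1 (median 0.25), with 21 higher and 2 lower against 2iL-F (median 0.37). Twnk, the helicase of mitochondrial DNA, had 23.5 and 25.5 TPM in LCDM, against 14.4 and 14.5 TPM in 2iL and 18.3 and 18.5 TPM in 2iL-F. Both LCDM libraries were above the 4 others. Rars2 and Lrpprc rose by 0.73 ± 0.06 and 0.72 ± 0.12, and Mrpl20 and Mrpl1 by 0.75 ± 0.05 and 0.65 ± 0.09. Nuclear subunits of oxidative phosphorylation were mixed, 17 higher, 14 lower and 27 not passing among 58. In the list of mitochondrial stress chaperones and proteases the counts were 4 higher and 3 lower among 12, and Hspd1, the chaperonin HSP60, rose by 0.58 ± 0.07. Without LCDM replicate 3, or without 2iL replicate 3, the rises number 1.

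The 16 tested PARP and poly-ADP-ribose genes had 7 rises and 2 falls. Parp1, the enzyme that senses DNA breaks, had 338 and 345 TPM in LCDM, against 258 and 266 TPM in 2iL and 209.8 and 212 TPM in 2iL-F (0.38 ± 0.04 and 0.69 ± 0.04). Tnks, the gene of tankyrase 1, fell (-0.79 ± 0.08), and Tdp1, which clears trapped topoisomerase 1, rose (0.53 ± 0.06). Histamine and muscarinic receptor and turnover genes could not be tested, as none of the 7 nameable members reached 1 TPM in 2 libraries. Hrh2, a histamine receptor, had a highest value of 0.191 TPM among the 10 libraries.

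The stated subject of the series is genome stability, and genes of DNA repair and chromosome segregation moved by small amounts. Spindle and segregation genes rose for 14 of 29 tested members and fell for 1 (median 0.21), beside 34.3% of all lines higher and 28.0% lower. Against 2iL-F 22 were higher and 0 lower (median 0.38), beside 32.3% and 27.2% of all lines. Without LCDM replicate 3, or without 2iL replicate 3, the rises against 2iL number 7. Pttg1, the securin that holds sister chromatids together until anaphase, had 78.9 and 82.4 TPM in LCDM, against 40.3 and 37.3 TPM in 2iL and 29.6 and 29.6 TPM in 2iL-F (1.04 ± 0.05 and 1.42 ± 0.05, adjusted p = 5.8e-07 and 1.4e-07). Cdc20, an activator of the anaphase-promoting complex, had 367 and 380.3 TPM in LCDM, against 261 and 244 TPM in 2iL and 259.6 and 267 TPM in 2iL-F. Plk1 and Aurka, mitotic kinases, rose by 0.55 ± 0.05 and 0.46 ± 0.04. In all 4 genes the LCDM libraries lay above the other groups.

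Replication stress genes had 14 rises and 6 falls among 30, with 6 rises left without LCDM replicate 3 and 7 without 2iL replicate 3. Etaa1, an activator of the kinase ATR, rose (0.60 ± 0.11), and Mcm2, a subunit of the replicative helicase, fell (-0.37 ± 0.04). Double-strand break repair had 7 rises, 5 falls and 18 not passing among 30, below the 34.3% of all lines higher and 28.0% lower. Against 2iL-F it had 16 rises and 0 falls, beside 32.3% and 27.2% of all lines. Without 2iL replicate 5 the rises against 2iL number 14. Polq, the polymerase of error-prone end joining, rose (0.63 ± 0.10), as did Rad54l (0.32 ± 0.06). In base, nucleotide and mismatch repair, 12 of 34 rose, near the 34.3% of all lines, and 4 fell. Ogg1, the glycosylase of oxidised guanine, had 18.4 and 19.7 TPM in LCDM, against 33.8 and 36.5 TPM in 2iL and 18.02 and 18.3 TPM in 2iL-F, and Xpc, a sensor of bulky damage, fell against 2iL (-0.62 ± 0.06).

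Targets of p53 fell more often than they rose, 12 against 5 of 26 (median -0.25), and 14 against 6 in the comparison with 2iL-F (median -0.21). Cdkn1a, the cell cycle inhibitor p21, had 167 and 179 TPM in LCDM, against 465 and 401 TPM in 2iL and 582 and 583 TPM in 2iL-F (-1.32 ± 0.07 and -1.75 ± 0.07). Fas, a death receptor, and Perp, an epithelial junction and apoptosis gene, rose against 2iL (1.47 ± 0.10 and 1.34 ± 0.10), and Fas was lower than in 2iL-F (-1.60 ± 0.10). Among cell cycle inhibitors, cyclins and E2F genes, 9 rose and 9 fell of 23. Cdkn1b, the inhibitor p27, had 21.1 and 20.7 TPM in LCDM, against 57.3 and 63.0 TPM in 2iL and 26.7 and 23.6 TPM in 2iL-F, and E2f3, an activating E2F, had 23.4 and 22.3 TPM in LCDM, against 8.04 and 9.51 TPM in 2iL and 24.4 and 24.5 TPM in 2iL-F. Cdkn1a and Cdkn1b were thus lowest in LCDM, and E2f3 was lowest in 2iL.

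Chromatin regulators showed single changes rather than a shared one. Retroelement silencing factors had 8 rises and 6 falls among 23. Atrx, a remodeller that loads histone H3.3, had 23.4 and 21.4 TPM in LCDM, against 10.1 and 12.7 TPM in 2iL and 17.0 and 18.1 TPM in 2iL-F. Zfp57, which protects imprints, had 167 and 168 TPM in LCDM, against 91.1 and 96.1 TPM in 2iL and 117 and 112 TPM in 2iL-F. Trim28, the corepressor of KRAB zinc finger proteins, had 859 and 855 TPM in LCDM, against 599.6 and 599 TPM in 2iL and 816 and 770.2 TPM in 2iL-F. All 3 were higher in LCDM than in the other groups. Polycomb and MLL genes fell for 11 and rose for 5 of 27. Ezh2, the methyltransferase of Polycomb complex 2, had 62.7 and 60.1 TPM in LCDM, against 91.8 and 103 TPM in 2iL and 49.5 and 50.3 TPM in 2iL-F. Imprinted genes had 6 rises and 5 falls among 15. H19 (chr7:142575529-142578143), the maternal noncoding RNA, is also abundant in fibroblasts of the embryo, and had 86.0 and 89.0 TPM in LCDM, against 0.143 and 0.1005 TPM in 2iL and 672 and 666 TPM in 2iL-F. The collagens below have the same order, and the part of fibroblast RNA was not tested. Peg3 fell against both (-2.29 ± 0.08 and -1.50 ± 0.08), Grb10 rose against both (2.53 ± 0.10 and 0.28 ± 0.10), and Meg3 did not pass against 2iL (-0.02 ± 0.06).

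Fibroblast markers lay in the order given above. Of 41 tested fibroblast markers, 34 were higher and 5 lower in LCDM than in 2iL (median 2.39, or 3.39 with a pseudocount of 0.1), and 1 higher and 39 lower than in 2iL-F (median -1.75). Col1a1 (chr11:94936224-94953042), the main chain of type I collagen, had 108 and 105 TPM in LCDM, against 0.200 and 0.264 TPM in 2iL and 1058 and 974 TPM in 2iL-F. Col3a1 had 17.9 and 15.1 TPM in LCDM, against 0.0268 and 0 TPM in 2iL and 361 and 356 TPM in 2iL-F. The collagen-crosslinking enzyme gene Lox, listed at 0 in each library labelled 2iL, had 23.1 and 22.6 TPM in LCDM and 239 and 239.8 TPM in 2iL-F. The order was the same for all 3: least in the libraries labelled 2iL, more in LCDM and most in 2iL-F. In bulk RNA, fewer cells of a type and less RNA per cell cannot be told apart. Over all 43 nameable markers the sums were 1380 and 1383 TPM in LCDM, against 1131 and 1170 TPM in 2iL and 5835 and 5631 TPM in 2iL-F, and 13 markers had at least 1 TPM in each library labelled 2iL, so the list also holds genes that stem cells express. Of the nameable macrophage, endothelial and blood markers, 13 of 26, the sums were 79.7 and 81.2 TPM in LCDM, against 129.4 and 134.0 TPM in 2iL and 92.2 and 88.0 TPM in 2iL-F. A large part of each sum was Pecam1, which is also on the list of naive pluripotency genes. It had 39.7 and 40.2 TPM in LCDM, against 70.3 and 73.4 TPM in 2iL and 44.3 and 43.5 TPM in 2iL-F. The sums therefore do not show that such cells were present. Vwf was lower in LCDM than in 2iL (-2.81 ± 0.09) and 2iL-F. It was lower still in SL, at 0.171 and 0.186 TPM, and in A2iL, at 0.495 and 0.381 TPM, against 1.25 and 1.14 TPM in LCDM.

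Chemokine genes were mostly higher than in 2iL and lower than in 2iL-F. Of 20 acute-phase and chemokine genes, 13 were higher and 2 lower than in 2iL, and 1 higher and 17 lower than in 2iL-F. Ccl2 and Ccl7, which attract monocytes, were listed at 0 in both 2iL libraries. Ccl2 had 20.9 and 21.8 TPM in LCDM and 119 and 118 TPM in 2iL-F, and Ccl7 had 28.3 and 26.8 TPM in LCDM and 81.2 and 91.2 TPM in 2iL-F. Members of the list with another order, named after their values were seen, were Serping1, a complement inhibitor, and Nfkb1, a subunit of NF-kappaB. Serping1 had 2.84 and 3.34 TPM in LCDM, against 14.7 and 17.0 TPM in 2iL and 17.95 and 15.6 TPM in 2iL-F. Nfkb1 had 11.3 and 11.04 TPM in LCDM, against 2.11 and 2.14 TPM in 2iL and 4.71 and 4.97 TPM in 2iL-F. Interferon response genes were higher in LCDM than in 2iL for 10 of 23 and lower for 2, beside the 34.3% of all lines that were higher, whereas against 2iL-F 0 were higher and 22 lower (median -1.55). Isg15, a ubiquitin-like antiviral protein, had 2.57 and 1.98 TPM in LCDM, against 0.116 and 0.109 TPM in 2iL and 33.9 and 30.8 TPM in 2iL-F. Lgals3bp, a secreted glycoprotein, had 10.4 and 10.6 TPM in LCDM, against 0.154 and 0.376 TPM in 2iL and 77.9 and 76.4 TPM in 2iL-F. Contractile and serum-response genes had 13 rises and 6 falls among 22 against 2iL, and 3 and 13 against 2iL-F. Acta2, smooth muscle actin, was listed at 0 in both 2iL libraries and had 30.8 and 26.3 TPM in LCDM and 36.8 and 39.3 TPM in 2iL-F. Tagln, an actin-binding protein, had 31.5 and 27.3 TPM in LCDM, against 0.661 and 0.414 TPM in 2iL and 27.6 and 25.9 TPM in 2iL-F, and did not pass against 2iL-F. The part of fibroblast RNA in these groups was not tested. When the 365 tested lines that follow the defining fibroblast markers across the 10 libraries (Pearson r above 0.9) were left out, 8693 of 14213 lines differed between LCDM and 2iL, and 7 of 14 chemokine genes rose. None of the 11 ERK feedback inhibitors was among the lines left out. A gene that follows the fibroblast markers only in part can stay below this limit, so the cut cannot show how much fibroblast RNA adds to it. That part was not tested for the ERK feedback inhibitors either.

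Epithelial junction genes fell for 10 and rose for 2 of 18 against 2iL (median -0.36), but 10 were higher and 3 lower than in 2iL-F (median 0.35). Cdh1 (chr8:106603351-106670246), E-cadherin, had 226 and 235 TPM in LCDM, against 615 and 645 TPM in 2iL and 349.9 and 344 TPM in 2iL-F (-1.45 ± 0.05 and -0.59 ± 0.05). Prss8, a membrane protease of epithelia, had 7.51 and 6.96 TPM in LCDM, against 31.5 and 33.7 TPM in 2iL and 8.11 and 7.12 TPM in 2iL-F. Krt18, a simple-epithelium keratin, had 12.7 and 13.9 TPM in LCDM, against 21.5 and 18.2 TPM in 2iL and 4.66 and 3.71 TPM in 2iL-F. Cdh1 was thus lower in LCDM than in 2iL and 2iL-F, while Krt18 lay between 2iL and 2iL-F. For Cdh1, SL, at 229 and 242 TPM, and A2iL, at 236 and 231 TPM, overlapped with LCDM.

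In metabolism, lysosome and autophagy genes fell for 24 of 43 tested members and rose for 5 (median -0.24), and against 2iL-F 31 were lower and 5 higher (median -0.44). Ctsc, a lysosomal protease, had 12.3 and 12.5 TPM in LCDM, against 35.0 and 42.4 TPM in 2iL and 20.2 and 20.6 TPM in 2iL-F. Neu1, a lysosomal sialidase, had 14.1 and 15.1 TPM in LCDM, against 37.6 and 37.5 TPM in 2iL and 20.9 and 18.8 TPM in 2iL-F. Of LCDM, 2iL and 2iL-F, both were lowest in LCDM, as was Mitf above, which had 1.11 and 1.55 TPM in SL. Glycolytic genes rose for 10 and fell for 5 of 18. Hk2, the first enzyme of glycolysis, fell (-1.20 ± 0.04 against 2iL and -0.52 ± 0.04 against 2iL-F), and Slc16a3, a lactate exporter, rose against 2iL (1.68 ± 0.06) and was slightly lower than in 2iL-F (-0.28 ± 0.06). Cholesterol synthesis genes had 8 rises and 9 falls among 22, and glutathione and NRF2 targets 13 rises and 14 falls among 32. Aldh1l1, a folate enzyme on that list, had 11.8 and 11.4 TPM in LCDM, against 70.2 and 75.1 TPM in 2iL and 27.3 and 28.6 TPM in 2iL-F.

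The remaining lists had mixed directions. Heat shock and chaperone genes had 15 rises and 11 falls among 35, led by Hspa8, the constitutive HSP70, with 979 and 916 TPM in LCDM, against 252 and 297 TPM in 2iL and 1004 and 1006 TPM in 2iL-F. TGF-beta and Nodal genes had 7 rises and 5 falls among 13, and 2 and 9 against 2iL-F. Smad3, a signal transducer of that pathway, fell against both (-1.21 ± 0.06 and -0.89 ± 0.06). Src family genes had 7 rises and 2 falls among 13. Neural genes had 3 rises and 2 falls among 7, and Nes, the intermediate filament nestin, fell against both (-2.22 ± 0.06 and -1.27 ± 0.06). Genes of the 2-cell stage had 1 rise and 3 falls among 6, the falls being Calcoco2, Pramel6 and Pramel7.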

How the data were processed

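RNA-seq of 10 libraries, 2 per medium, was deposited as one table of TPM; per the submitters' processing notes the authors used Bowtie2, RSEM and the mm10 build, and DESeq2 and R 3.4.2 are named there too. The labels name a Qiagen RNA kit and NEBNext Ultra library preparation. TPM keep no read number, so depth is unknown and no counting error is given. Here log2(TPM + 1) was fitted with limma 3.58.1 (R 4.3.3, empirical Bayes with a trend), with a mean per medium over all 10 libraries (5 residual degrees of freedom), for lines with at least 1 TPM in 2 libraries. Adjusted p-values are Benjamini-Hochberg over 14578 lines. Tables, promoter matches and figures were made in Python 3.11.15.

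Symbols were offset from values in the lower table. Among the first 9865 lines, 98.0% of 247 members of broadly expressed gene families had at least 5 TPM, and among the later lines 48.1% of 135.

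The genes named are the 15 largest rises and falls against 2iL, the same against both 2iL and 2iL-F, up to 4 members per list, and a set of well-known genes; others are marked in the text. Members and lists were chosen with earlier results of these data known. Alternatives varied the pseudocount, the filter, the scaling, the libraries, the lines fitted, robust estimation and a replicate term.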

Additional observations from a re-analysis of the deposited data

How the results depend on the processing

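Of 2746 values of named genes under 15 alternatives, 2731 kept their direction and their side of the threshold, 11 no longer passed (Dnmt1 in 7, among them the replicate block, robust estimation, only the 4 libraries compared and without the 2iL-F libraries, and Gata3 in 4), 4 newly passed (Cdx2, Esrrb and Axin2) and 0 reversed. Of 705 counts of list members, 24 moved by more than 1.5 times. The cause was not tested unless the setting itself has fewer lines or libraries. With a pseudocount of 0.1, 1801 lines were higher by at least 1 against 2iL (969 with 1) and 989 against 2iL-F (590 with 1). On nameable lines alone, which are fewer, 5335 lines passed against 2iL, 2934 higher and 2401 lower, 491 and 430 of them by at least 1. Against 2iL-F, 5215 passed, 2935 higher and 2280 lower, 288 and 512 of them by at least 1. With the replicate block, 8869 lines passed against 2iL and 8452 against 2iL-F. Whether the replicate numbers pair the libraries is not stated. The deviations of same-numbered libraries correlated by -0.131 between LCDM and 2iL, which cannot show whether they were paired. Leaving out 1 library gave 7610 to 8814 lines against 2iL and 7167 to 7312 against 2iL-F, the group with 1 library left being taken to vary like the others. Without the 2iL-F libraries, a fit added after the data were seen, 8789 lines passed against 2iL.

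With no filter, 5 neural genes were higher. With a filter of 5 TPM, which leaves fewer members, 9 germline, 5 primitive endoderm, 3 mesendoderm and 1 neural gene were higher and 1 gene of the 2-cell stage was lower. With quantile normalisation, 3 mesendoderm genes and 1 neural gene were higher. With only the 4 libraries compared, 11 oxidative phosphorylation, 2 mitochondrial chaperone, 6 replication stress and 7 spindle genes were higher and 2 Wnt components lower. Without lines that follow the fibroblast markers, 7 chemokine and 11 fibroblast genes were higher.
Leaving out 1 library at a time gave 7 to 21 spindle, 6 to 15 replication stress, 5 to 14 double-strand break repair, 1 to 5 mitochondrial chaperone and 3 to 5 mesendoderm genes higher, and 2 to 4 Wnt components lower.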
